A study of Mus musculus with 20 samples.

Results

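The 8 genes described here, Gad1, Gad2, Slc32a1, Slc6a5, Grm2, Kit, Nxph1 and Pax2, serve the making and transport of GABA and glycine or mark the inhibitory interneurons of the cerebellum. They were taken by name from a count table of 29200 gene identifiers, and all 8 were among the 12153 genes tested, those that averaged 50 counts or more across libraries. RNA was sequenced from the whole cerebellum of C57BL6/N mice, which the study's figure legends give as males, at 2 and 12 months of age, with 5 WT/WT and 5 304Q/304Q mice at each age. The 304Q/304Q mice carried an interrupted CAACAG expansion in both murine Atxn3 alleles, under the gene's own regulatory elements, and descended from 1 founder line made with zinc-finger nucleases. The WT/WT mice were their littermates; the sample labels name ataxin-2 for their wild-type alleles, while the study's text names ataxin-3. Atxn3 transcripts were measured in every group, and the insertion does not remove the gene. The mean was 277.9 ± 42.1 normalized counts (SD, n = 5) in WT/WT and 191.5 ± 30.9 in the 304Q/304Q mice at 2 months, and 222.2 ± 16.0 and 203.4 ± 17.6 at 12 months.

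In the cerebellar cortex, basket and stellate cells of the molecular layer release GABA onto Purkinje cells and onto each other, and Golgi cells of the granular layer release GABA and glycine onto granule cells. Glutamate decarboxylase, encoded by Gad1 and Gad2, makes GABA from glutamate, and the vesicular transporter encoded by Slc32a1 loads GABA and glycine into synaptic vesicles. Purkinje cells are GABAergic as well and express Gad1, Gad2 and Slc32a1, so in the whole tissue these transcripts do not belong to interneurons alone. In bulk RNA, fewer cells of a type and less RNA per cell cannot be told apart.

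Library totals ran from 11385380 to 27636687 counts, with a median of 13522932, and the deepest library was the first 304Q/304Q mouse of 2 months. The members' raw counts ranged from 5639 to 13844 for Gad1 and from 109 to 343 for Nxph1, the least abundant. Values are given below as normalized counts, that is, counts scaled to a common library size, and differences as log2 fold changes. Tests are the quasi-likelihood test of edgeR, and p-values were adjusted over all 12153 genes by the method of Benjamini and Hochberg. A gene passed at an adjusted p of at most 0.05, and a differentially expressed gene (DEG) had, besides, a log2 fold change of 0.5 or more in either direction.

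The promoters of the 3 members that passed the test between genotypes at 12 months, Gad1, Slc32a1 and Grm2, all as lower, are shown. Each is read 5′ to 3′ in the gene's own direction from the RefSeq table for GRCm38.p6, from 250 bases before the start site, and the Gad1 stretch stops at base 163, where a Gad1 exon of GENCODE vM21 begins. Capitals mark TATAAA, the TATA box core, and GGGCGG, a GC box bound by Sp factors, on either strand.
Gad1, chr2:70561879-70562041, plus strand: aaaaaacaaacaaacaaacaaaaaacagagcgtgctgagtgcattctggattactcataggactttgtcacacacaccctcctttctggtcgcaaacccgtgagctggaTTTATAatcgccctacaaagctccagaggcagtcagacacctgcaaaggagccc
Slc32a1, chr2:158610508-158610757, plus strand: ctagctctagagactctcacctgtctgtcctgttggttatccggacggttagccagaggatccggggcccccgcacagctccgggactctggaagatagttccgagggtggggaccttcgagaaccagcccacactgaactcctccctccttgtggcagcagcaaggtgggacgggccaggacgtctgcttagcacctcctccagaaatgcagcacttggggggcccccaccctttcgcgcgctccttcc
Grm2, chr9:106656110-106656359, minus strand: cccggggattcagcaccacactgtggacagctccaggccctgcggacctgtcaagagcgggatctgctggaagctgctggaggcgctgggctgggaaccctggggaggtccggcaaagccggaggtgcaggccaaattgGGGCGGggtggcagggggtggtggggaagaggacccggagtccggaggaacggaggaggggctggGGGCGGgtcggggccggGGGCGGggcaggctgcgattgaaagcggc

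Over the full 250 bases, the Grm2 promoter held GGGCGG 3 times, the Gad1 promoter held it 1 time and the Slc32a1 promoter not at all. The motif was found in 32.7% of all 32851 promoters in the table and in a promoter of 5 of the 8 members. These shares are not alike, since a member counted if any of its listed promoters held the motif, and some members had several. TATAAA was found only in the Gad1 promoter among the members and in 12.4% of all promoters. CAGCTG, an E-box of the kind bound by basic helix-loop-helix factors, was searched in the same way and found in 1 of the 3 listed promoters of Pax2 and in 13.0% of all promoters. The G and C share of the window was 58.0% for Gad1, 62.4% for Slc32a1 and 71.2% for Grm2, against a median of 52.4% over all promoters. None of the 3 motifs was found in all 3 of these windows.

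On GRCm38, Gad1 spans bases 70553072 to 70602014, Gad2 22622205 to 22693874 and Slc32a1 158610767 to 158615748, all on the plus strand of chromosome 2. Grm2 lies on the minus strand of chromosome 9 from 106643095 to 106656082, Slc6a5 on chromosome 7 from 49910146 to 49963856, Kit on chromosome 5 from 75574916 to 75656722, Nxph1 on chromosome 6 from 8948431 to 9249032 and Pax2 on chromosome 19 from 44756045 to 44837871. The exons of Grm2 overlap those of Gm28111 and the exons of Slc32a1 those of Gm14205, both on the opposite strand. Whether the counting used strand is not given in the sources used here, so reads of such pairs may not be told apart. Gm28111 had a mean below 5 counts over the libraries, and the deposited counts hold no entry for Gm14205.

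Gad1 was the most abundant member per length, and the 8 genes spanned more than an order of magnitude. As TMM-scaled CPM per kilobase of exon, the mean level over all 20 mice was 68.5 ± 4.62 (SD) for Gad1, 43.6 ± 5.14 for Slc32a1, 32.7 ± 3.61 for Gad2 and 25.9 ± 2.02 for Kit. Grm2 followed at 6.28 ± 0.969, Slc6a5 at 5.66 ± 0.898, Pax2 at 3.69 ± 0.438 and Nxph1 at 2.66 ± 0.401. In this order the mice did not overlap between Gad1 and Slc32a1 nor between Kit and Grm2, while every other pair of neighbours overlapped. Within a library, the Gad1 count exceeded that of Gad2 in every group. The log2 ratio was 1.39 ± 0.207 (SD, n = 5) in WT/WT mice of 2 months, 1.41 ± 0.120 in 304Q/304Q mice of that age, and 1.56 ± 0.142 and 1.43 ± 0.0723 at 12 months. All 4 groups overlapped in this ratio, which does not depend on how libraries are scaled.

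**Figure D1:**
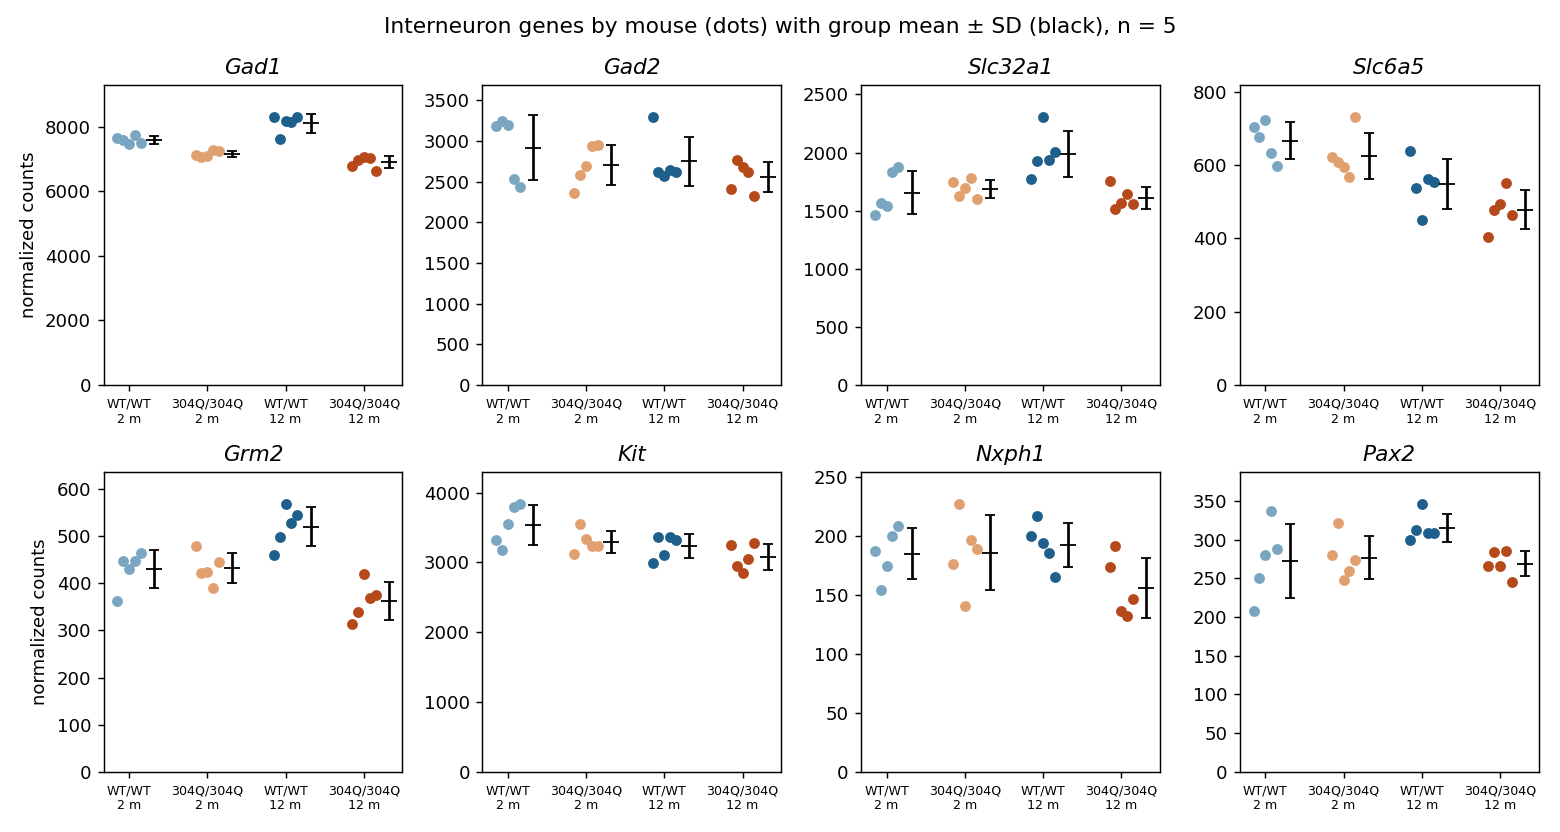
Normalized counts (vertical axes, from 0) of the 8 genes in each of the 20 mice; dots are mice and black marks the mean ± SD of 5 mice per group. At 12 months the 304Q/304Q mice lie wholly below the WT/WT mice for Gad1, Slc32a1, Grm2 and Pax2, and at 2 months for Gad1 alone.

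The first question was whether the interneuron genes differed between genotypes at 12 months, the age the study calls symptomatic. All 8 members were lower in 304Q/304Q mice, and 3 of them, Gad1, Slc32a1 and Grm2, passed the test. Of all genes tested, 12.5% passed in either direction and 7.3% passed as lower, and 50.9% were lower with no threshold. The median log2 fold change of the 8 was −0.23, against −0.0039 over all genes tested. In 4 of the 8, Gad1, Slc32a1, Grm2 and Pax2, the 5 mice of each genotype did not overlap, as in 8.94% of all genes. The 3 calls and the 8 lower values were the same in each of the 20 fits that left out 1 library. With 3 surrogate variables as covariates, 5 passed in edgeR and in DESeq2, Gad2 and Slc6a5 being added.

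Among the enzymes, Gad1 fell with the smallest spread of the 8. The 12-month WT/WT mice had 8282, 7601, 8181, 8154 and 8294 normalized counts of Gad1, and the 304Q/304Q mice had 6770, 6974, 7051, 7032 and 6624. The lowest WT/WT mouse stood above the highest 304Q/304Q mouse. The log2 fold change was −0.23 (SE 0.0364, 95% interval −0.31 to −0.16, adjusted p = 8.74e-05). Gad2, the isoform tied to synaptic vesicles, had 3295, 2625, 2568, 2643 and 2620 in WT/WT and 2405, 2769, 2679, 2614 and 2327 in the 304Q/304Q mice. Its groups overlapped and differed by −0.10 (95% interval −0.28 to 0.07, adjusted p = 0.466), an interval that still holds the Gad1 value.

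Both transporters were lower, and the one shared by GABA and glycine passed. Slc32a1 had 1771, 1923, 2305, 1937 and 2008 normalized counts in WT/WT and 1753, 1516, 1565, 1644 and 1558 in the 304Q/304Q mice of 12 months. The groups were set apart by the narrow step from 1771 to 1753, both first mice. The log2 fold change was −0.31 (SE 0.0712, adjusted p = 0.00514), and −0.19 (adjusted p = 0.00584) once trends with GC content and gene length were removed. Slc6a5 encodes the plasma membrane glycine transporter GlyT2, a marker of glycinergic neurons that include Golgi cells. It had 639.3, 536.2, 450.1, 561.7 and 552.9 in WT/WT and 403.5, 476.3, 492.6, 551.6 and 463.7 in the 304Q/304Q mice, which overlapped, with a log2 fold change of −0.20 (SE 0.0926, adjusted p = 0.165).

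Grm2 had the largest difference of the 8 and was the only DEG among them, where 3.09% of all genes tested were DEGs. It encodes the group II metabotropic glutamate receptor mGluR2, known in the cerebellum from Golgi cells and unipolar brush cells. The WT/WT mice of 12 months had 461.1, 498.5, 568.7, 528.6 and 545.1 normalized counts, and the 304Q/304Q mice had 312.9, 340.1, 420.1, 369.6 and 374.4. Every 304Q/304Q mouse was below every WT/WT mouse. The log2 fold change was −0.52 (SE 0.0869, 95% interval −0.70 to −0.34, adjusted p = 0.000206), and it lay between −0.58 and −0.47 when each library was left out. Over 12 other settings it lay between −0.55 and −0.45. Grm2 passed in all of these fits, but in some the change was under 0.5 in size, so that Grm2 was not a DEG there.

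The markers of molecular layer and developing interneurons did not pass at 12 months. Kit, the receptor tyrosine kinase of basket and stellate cells, had 2995, 3361, 3112, 3370 and 3325 in WT/WT and 3256, 2951, 2844, 3053 and 3282 in the 304Q/304Q mice. These groups overlapped, and the log2 fold change of −0.07 had a 95% interval of −0.19 to 0.05 (adjusted p = 0.459). Nxph1, a secreted ligand of α-neurexins, had 200.5, 217.0, 194.6, 185.6 and 165.4 in WT/WT and 173.9, 191.6, 136.3, 131.9 and 146.5 in the 304Q/304Q mice, with a log2 fold change of −0.30 (SE 0.131, adjusted p = 0.137). In 3 of its 304Q/304Q mice the value was below every WT/WT mouse, and the other two lay within the WT/WT range. Pax2, a transcription factor of GABAergic interneuron precursors, had 299.6, 312.2, 346.4, 308.9 and 308.6 in WT/WT and 265.5, 283.6, 266.3, 285.6 and 244.9 in the 304Q/304Q mice. Its groups did not overlap, yet the log2 fold change of −0.23 did not pass (SE 0.103, adjusted p = 0.152), and it was −0.13 with the GC and length trends removed.

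**Figure D2:**
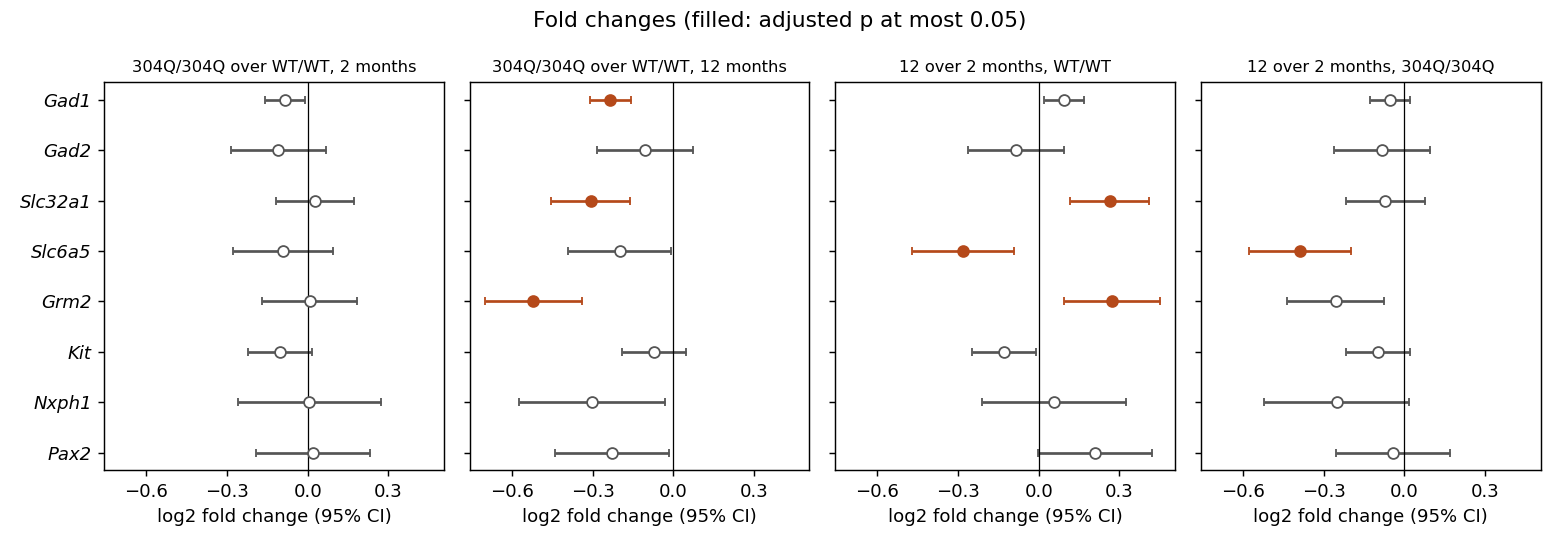
Log2 fold changes (horizontal axes) of the 8 genes in 4 comparisons, with 95% confidence intervals; filled points passed at an adjusted p of at most 0.05. All 8 points lie below 0 in the genotype comparison at 12 months, where 3 are filled, and none is filled at 2 months.

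At 2 months, the age the study calls pre-symptomatic, 0 of the 8 members passed edgeR's test, and 0 passed the DESeq2 Wald test. Of all genes tested, 0.0494% passed, and 1 member, Gad1, had an unadjusted p under 0.05, as did 5.55% of all genes. Gad1 had 7659, 7592, 7459, 7725 and 7496 normalized counts in WT/WT and 7110, 7050, 7093, 7265 and 7238 in the 304Q/304Q mice. The groups did not overlap, which was so for 1.05% of all genes, and the spread within them was 1.46% and 1.32% of the mean. The log2 fold change was −0.09 (95% interval −0.16 to −0.01, adjusted p = 0.86). The other 7 members overlapped between genotypes, with log2 fold changes from −0.11 for Gad2 to 0.03 for Slc32a1, and 4 of the 8 were lower, as were 50.7% of all genes.

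Among the 4 most abundant members, Gad2 had the widest relative spread in the young WT/WT mice, at 13.6% of its mean. Its 5 values there were 3184, 3245, 3195, 2538 and 2435, and those of the 304Q/304Q mice were 2366, 2588, 2691, 2945 and 2949. In the same WT/WT mice Slc32a1 had 1466, 1570, 1538, 1829 and 1876, so the 3 mice high in Gad2 were low in Slc32a1. Over all 20 libraries, after each group's mean was subtracted, Gad2 and Slc32a1 had a Pearson r of −0.72, and Slc32a1 and Slc6a5 an r of −0.75. The libraries differ in how counts vary with GC content, and longest-transcript GC is 44.1% for Gad2, 48.2% for Slc6a5 and 61.9% for Slc32a1. With that trend and the one with length removed, r was −0.19 and −0.46.

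The test of whether the genotype difference itself changed with age called 1 member, Grm2, against 1.95% of all genes. Grm2 had 362.3, 448.3, 430.3, 447.4 and 465.0 in WT/WT and 479.2, 421.7, 424.8, 390.9 and 445.1 in the 304Q/304Q mice of 2 months, which overlapped, in contrast to the separate groups of 12 months. The difference between the 2 genotype effects was −0.53 on the log2 scale (SE 0.122, adjusted p = 0.0208). It did not pass without the first 304Q/304Q mouse of 2 months (−0.48, adjusted p = 0.0555) or without the third WT/WT mouse of 12 months (−0.49, adjusted p = 0.0509), nor in edgeR with surrogate variables (−0.47, adjusted p = 0.0543). For Slc32a1 the term was −0.33 (SE 0.101, adjusted p = 0.088) and for Gad1 −0.15 (SE 0.0514, adjusted p = 0.148). Slc32a1 passed in 3 of the 20 fits with 1 library left out, those without WT/WT mouse 4 or 5 of 2 months or mouse 1 of 12 months (adjusted p = 0.0495, 0.0402 and 0.0309). Gad1 passed in DESeq2 with surrogate variables (−0.18, adjusted p = 0.00771).

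With age in WT/WT mice, Slc32a1 and Grm2 rose and Slc6a5 fell. Of all genes tested, 11.5% passed, 6.08% as higher and 5.42% as lower. The genotype and age comparisons share the same mice, so their values are not independent. Slc32a1 went from a mean of 1656 ± 184 at 2 months to 1989 ± 197 normalized counts at 12 months (SD, n = 5; log2 fold change 0.26, SE 0.0711, adjusted p = 0.0187). Grm2 went from 430.7 ± 40.1 to 520.4 ± 41.9 (0.27, SE 0.086, adjusted p = 0.0416), and Slc6a5 from 666.5 ± 51.0 to 548.0 ± 67.6 (−0.28, SE 0.0913, adjusted p = 0.0464). The ranges overlapped for all 3.

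These calls in WT/WT mice did not hold when some single libraries were left out or when GC and length trends were removed. All 3 were lost when WT/WT mouse 1, 2 or 3 of 2 months or mouse 3 of 12 months was left out, and when only the WT/WT libraries were fitted. Grm2 was also lost without WT/WT mouse 2, 4 or 5 of 12 months, and Slc6a5 passed in 7 of the 20 fits with 1 library left out. With the GC and length trends removed, Slc32a1 went to 0.05 (adjusted p = 0.528), Grm2 to 0.17 (adjusted p = 0.187) and Slc6a5 to −0.24 (adjusted p = 0.0851), while Gad1 passed at 0.16 (adjusted p = 0.0143). In edgeR with surrogate variables Kit alone passed, as lower (−0.19, adjusted p = 0.0217), and in DESeq2 with them Gad1 and Kit passed. The mean of the combined GC and length trend for Slc32a1 was −0.09 in WT/WT libraries of 2 months and 0.13 in those of 12 months, on the log2 scale.

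**Figure D3:**
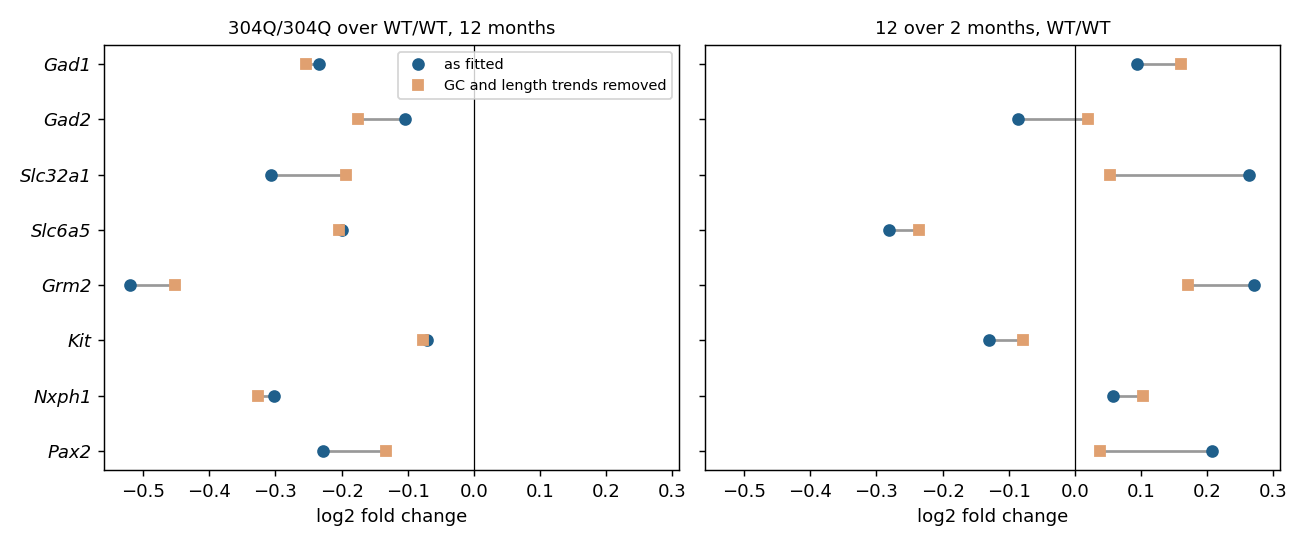
Log2 fold changes (horizontal axes) of the 8 genes as fitted (circles) and with GC and length trends removed (squares), between genotypes at 12 months (left) and between ages in WT/WT mice (right). The 8 values on the left stay below 0, whereas Slc32a1 on the right moves from 0.26 to 0.05.

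In 304Q/304Q mice all 8 members were lower at 12 than at 2 months, and Slc6a5 alone passed. Of all genes 51.1% were lower with age, and 7.26% passed, 4.18% as lower. Slc6a5 had 622.0, 607.3, 594.5, 568.5 and 730.7 normalized counts at 2 months and 403.5, 476.3, 492.6, 551.6 and 463.7 at 12 months. The ages did not overlap, as in 7.8% of all genes, and the log2 fold change was −0.39 (SE 0.0917, adjusted p = 0.00822). It passed in all 20 fits with 1 library left out. In WT/WT mice the log2 fold change of Slc6a5 with age was −0.28. The difference between the age changes of the genotypes was −0.11 and did not pass (SE 0.129, edgeR, adjusted p = 0.714). The 11 measured marker genes of brainstem outside the cerebellum, which also holds glycinergic neurons, summed to between 2.14 and 31.0 normalized counts in any mouse, and the part of such tissue in the Slc6a5 values was not tested. Grm2 had −0.26 (SE 0.0868, adjusted p = 0.0806) and passed with the GC and length trends removed (−0.27, adjusted p = 0.0325) and without the third 304Q/304Q mouse of 12 months (−0.31, adjusted p = 0.0373).

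Other genes that make, move or receive GABA and glycine were lower at 12 months in part. Among all genes tested, 50.9% were lower in 304Q/304Q mice and 7.3% passed as lower. Of 26 listed genes 22 were tested, 17 were lower in 304Q/304Q mice, 7 passed as lower and 0 as higher. Their median log2 fold change was −0.14. The largest were Gls2, a glutaminase (−0.61, adjusted p = 0.000161), Glul, the glutamine synthetase of astrocytes and Bergmann glia (−0.45, adjusted p = 2.63e-07), Slc6a9, the glial glycine transporter GlyT1 (−0.38, adjusted p = 0.000248), and Gldc, the glycine decarboxylase (−0.30, adjusted p = 0.0284). In this list 4 genes passed when only the 2 groups of 12 months were fitted.

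Of 16 further interneuron markers 13 were tested, 12 were lower at 12 months and 4 passed, all as lower, with a median of −0.24. Among all genes tested, 50.9% were lower and 7.3% passed as lower. Pvalb, the calcium buffer parvalbumin of molecular layer interneurons and Purkinje cells, fell by 0.45 on the log2 scale (adjusted p = 4.26e-06). Lgi2 had −0.38 (adjusted p = 3.66e-05), Prkcd, a protein kinase C, −0.27 (adjusted p = 0.00443), and Nos1, the neuronal nitric oxide synthase of molecular layer interneurons and granule cells, −0.27 (adjusted p = 0.0256). At 2 months 0 of the 13 passed edgeR's or the DESeq2 Wald test, and 1, Tfap2b, had an unadjusted p under 0.05.

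The binding partners and paralogs of the members did not pass at 12 months. Of 9 tested, including the Kit ligand Kitl, Nxph3, Nxph4, Grm3, Pax3 and Pax6, 0 passed edgeR's or the DESeq2 Wald test. An unadjusted p under 0.05 was found for 3, Grm3, Pax3 and Pax6, and for 27.3% of all genes tested. Kitl, which Purkinje cells supply to Kit-bearing interneurons, had −0.10 (SE 0.119, adjusted p = 0.634). It passed as lower with surrogate variables in edgeR (−0.22, adjusted p = 0.0353) and with the GC and length trends removed (−0.26, adjusted p = 0.00468). With age, Nxph3, a paralog of Nxph1, rose in both genotypes (0.53, adjusted p = 0.0148, in WT/WT and 0.50, adjusted p = 0.0253, in 304Q/304Q mice).

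Markers of Purkinje cells moved with the same comparison. All 12 listed were tested and lower in 304Q/304Q mice at 12 months, against 50.9% of all genes. Of the 12, 10 passed as lower, against 7.3% of all genes. The 12 markers had a median of −0.38, with values such as −0.65 for Pcp4, −0.59 for Pcp2, −0.53 for Rgs8 and −0.52 for Homer3. Their summed level was 87510 to 95990 normalized counts in 304Q/304Q against 111600 to 122500 in WT/WT mice of 12 months, and at 2 months it was 108700 to 118900 against 115800 to 128900, where 0 passed edgeR's or the DESeq2 Wald test and 0 had an unadjusted p under 0.05. None of these markers was near 0 in any group. The part of Purkinje cells in the lower values of Gad1, Gad2, Slc32a1 and Pvalb was not tested.

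Eomes, which defines unipolar brush cells, was lower in 304Q/304Q mice at 12 months, as was Grm2. It was at 308.2 to 1108 normalized counts in WT/WT and 130.7 to 247.9 in 304Q/304Q mice (−2.06, adjusted p = 0.001). At 2 months Eomes was at 252.9 to 1360 and 284.3 to 584.0, which overlapped (−0.88, adjusted p = 0.86). Its unadjusted p there was under 0.05, as for 5.55% of all genes. The change of its genotype difference with age did not pass. Calb2, the other marker of that list that was tested, which granule cells also express, was higher at both ages (0.37, adjusted p = 0.0148, and 0.53, adjusted p = 3.36e-06). The part of unipolar brush cells in the Grm2 difference was not tested. Of 8 granule cell markers 0 passed at 12 months in edgeR or the DESeq2 Wald test. In edgeR 2 had an unadjusted p under 0.05, as did 27.3% of all genes. With surrogate variables 3, Neurod1, Cbln1 and Grin2c, passed as lower in edgeR and in DESeq2. For Kit, which mast cells also carry, the 3 measured mast cell markers summed to at most 4.43 normalized counts in any mouse.

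**Figure D4:**
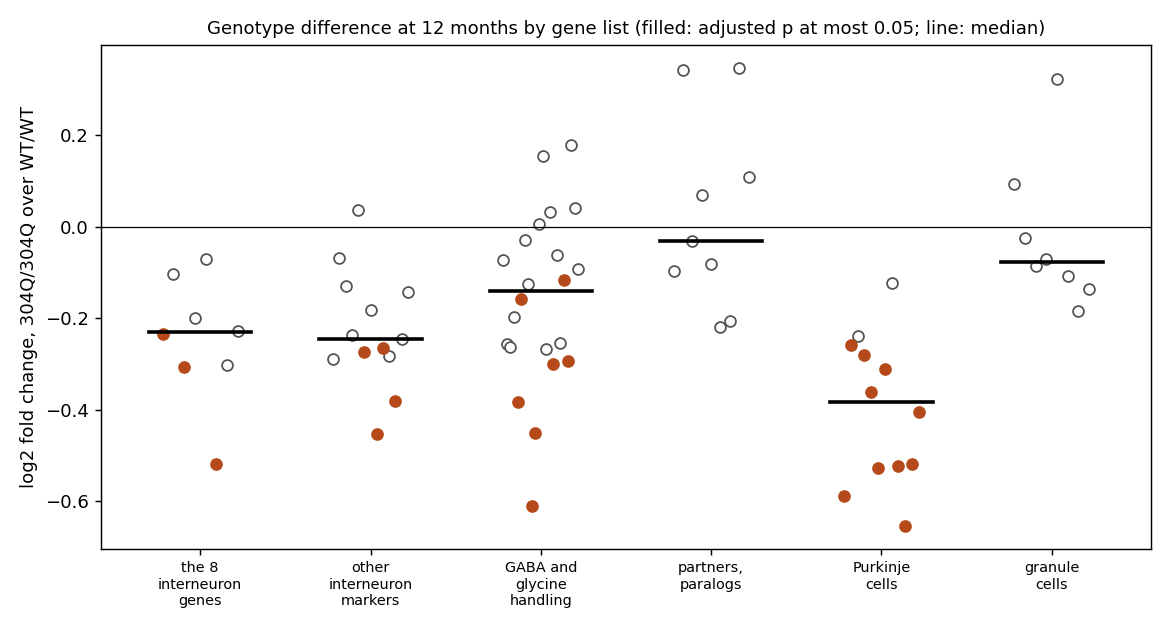
Log2 fold changes between genotypes at 12 months (vertical axis) for the tested genes of 6 lists; each point is a gene, filled where it passed, and the line is the list's median. The medians are −0.23 for the 8 interneuron genes, −0.24 for the other interneuron markers, −0.14 for GABA and glycine handling, −0.03 for partners and paralogs, −0.38 for Purkinje cells and −0.08 for granule cells.

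The transcripts whose residual pattern was most like that of a member, by Pearson r of log2 CPM over 20 libraries after each group's mean was subtracted, were Gtpbp10 (0.80), Nap1l5 and Zfp85 for Gad1, Cadm2 (0.95), Yme1l1 and Aasdhppt for Gad2, and Sdhb (0.89), Rps24 and Psma7 for Slc32a1. For Slc6a5 they were Hif1a (0.89), Wdfy1 and Zic1, for Kit Chd4 (0.85), Sla and Mkrn1, and for Grm2 Ube2q1 (0.83), Hcn3 and Adcy8. Those of Nxph1 included Abcb10 (0.76) and Mast1, and Pax2 was most like Zfp385a (0.88), Ptges and 1810043G02Rik. No member was among the 3 nearest of another. Trends with GC content and gene length were not removed for this ranking, and their part in these values of r was not tested.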

How the data were processed

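Cerebellar RNA of 20 mice was enriched for poly(A) and made into stranded paired-end libraries by the authors, who, per their methods, selected RNA by integrity, aligned reads with STAR to Ensembl GRCm38 and counted them per gene with Rsubread. The submitters' processing notes give STAR version 2.4.5b, and the methods give another version. The deposited values were raw counts, 1 column per mouse, from 11385380 to 27636687 per library, and nothing was pooled. Groups came from the sample labels.

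Counts were fitted in edgeR 4.0.16 (R 4.3.3) with TMM scaling over genes averaging 50 counts or more (99.31% of all counts) and a quasi-likelihood test with 1 term per group over all 20 libraries, so the 4 groups share 1 estimate of spread. Intervals of fold changes are 95% intervals from that fit. Alternatives were DESeq2 1.42.0, surrogate variables from sva 3.50.0, other filters and scalings, and GC and length trends removed by offsets. GC was that of each gene's longest transcript and length that of its exons, both from GENCODE vM21. Further alternatives were the replicate number as a block, each library left out, and libraries thinned to the lowest total (added after seeing the data). The scripts were tested on simulated data.

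The 8 members and the gene lists were chosen with earlier results of these data known. All 8 members are named; of each other list, genes past the threshold are named, up to 4 by size for each comparison, and other names were chosen after their values were seen. For each member the genes most alike in residual pattern were ranked, and the first 3 are given. Some listed or ranked genes are not reported here. Libraries of a group differed by more than counting error (chi-square per degree of freedom at least 4.43), so no mouse was counted as a repeat of another. Of 29200 identifiers, 29150 were in the annotation. Promoters came from RefSeq (GRCm38.p6), and all 8 members had at least 1 entry. No protein sequences were used here.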

Additional observations from a re-analysis of the deposited data

Results flagged for a closer look

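In 3 of the 32 sets of 5 mice examined for the 8 members, 1 mouse lay far from the rest of its group, and chance gives about 1 in 20. All 3 were WT/WT mice of 12 months: mouse 2 for Gad1 at 7601 normalized counts, below 8154 to 8294 in the others, mouse 1 for Gad2 at 3295, above 2568 to 2643, and mouse 3 for Pax2 at 346.4, above 299.6 to 312.2. Without mouse 2 the Gad1 difference between genotypes at 12 months was −0.26 on the log2 scale and passed, without mouse 1 that of Gad2 was −0.03 and did not pass, and without mouse 3 that of Pax2 was −0.19 and did not pass.

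For Grm2 the genotype difference changed with age by a test of that difference itself, by −0.527 on the log2 scale (edgeR, adjusted p = 0.0208), with the 2 left-out mice and the surrogate-variable fit described above moving its adjusted p above 0.05.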

How the results depend on the processing

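At 12 months the 8 members were lower in all 12 other settings and all 20 fits with 1 library left out; 3 passed in each, except 5 with surrogate variables in DESeq2 and in edgeR. At 2 months 0 passed throughout. With age in WT/WT mice the 3 calls became 4 in the DESeq2 Wald test, with Gad1 added, 2 in DESeq2 and 1 in edgeR with surrogate variables, 2 with edgeR's filterByExpr, 2 with libraries thinned, 1 with no filter on low counts, 0 with only the groups compared, 1 with GC and length trends removed, 1 with the replicate block added to that, and 0 to 4 with 1 library left out. In 304Q/304Q mice the 1 call became 2 with surrogate variables in either tool, 2 with GC and length trends removed, 2 with the block added, and 1 to 2 with 1 library left out. For the change of the genotype difference with age, the 1 call became 2 in DESeq2 and 0 in edgeR with surrogate variables, and 0 to 2 with 1 library left out. The cause was not tested.

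Directions turned only for members that passed in neither fit. At 2 months, log2 fold changes with surrogate variables in DESeq2 were −0.00923 for Slc32a1, −0.00903 for Grm2, −0.0129 for Nxph1 and −0.0174 for Pax2, and in edgeR −0.0115, −0.0114, −0.0152 and −0.0197. With GC and length trends removed they were −0.0186 for Slc32a1, −0.0156 for Grm2 and −0.0105 for Pax2, and with the block added −0.0199, −0.0125 and −0.00882. With 1 library left out they ran from −0.0133 to 0.0765 for Slc32a1, −0.0481 to 0.0414 for Grm2, −0.0724 to 0.0885 for Nxph1 and −0.0607 to 0.108 for Pax2. For age in WT/WT mice Gad2 was 0.0696 and 0.0729 with surrogate variables in DESeq2 and edgeR, 0.0198 with trends removed and 0.0229 with the block added, and Nxph1 ran from −0.00157 to 0.108 with 1 library left out. For age in 304Q/304Q mice Pax2 ran from −0.0768 to 0.0205. For the change with age Gad2 was −0.162 and −0.167 with surrogate variables, −0.0922 with trends removed, −0.0982 with the block added, and −0.0411 to 0.0778 with 1 library left out.

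Same-numbered mice were not treated as paired. The mean correlation of their deviations lay between −0.0662 and 0.0774, which cannot show whether they were handled together. With the replicate block the calls were 0 at 2 months, 3 at 12 months, 2 and 1 for age in WT/WT and 304Q/304Q mice, and 1 for the change with age, and the block alone turned Nxph1 at 2 months to −0.00687 and the Gad2 change with age to −0.0033.

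Among all genes, those that passed at 2 months went from 6 to 22 in DESeq2, 52 and 44 with surrogate variables in DESeq2 and edgeR, 10 with no filter, 4 with only the groups compared, 17 with trends removed and 20 with the block added. For age in WT/WT mice 1398 became 820 in edgeR with surrogate variables, 733 with only the groups compared and 866 with trends removed and the block. For age in 304Q/304Q mice 882 became 1659 and 1510 with surrogate variables, and for the change with age 237 became 395 in DESeq2 and 420 with surrogate variables added. With 5 mice per group, the 95% intervals of the members at 12 months reached from −0.19 to 0.05 for Kit and from −0.57 to −0.03 for Nxph1, the precision that this depth and n gave.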

Other observations

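The other marker lists gave these results between genotypes at 12 months, as values. Over all genes tested, 50.9% were lower, 7.3% passed as lower, 5.23% passed as higher, and 27.3% had an unadjusted p under 0.05. Of 7 oligodendrocyte genes 7 were lower and 3 passed, among them Mobp (−0.80) and Mbp (−0.43). Of 6 genes of astrocytes and Bergmann glia 2 passed as lower, Gdf10 (−0.66) and Aldh1l1 (−0.52), and of 4 tested microglia genes 1 passed as higher, C1qa (0.33, adjusted p = 0.0443). C1qa did not pass with surrogate variables in DESeq2 (0.13, adjusted p = 0.514) or edgeR (0.12, adjusted p = 0.528), and 0 microglia genes passed with no filter on low counts, with only the 2 groups of 12 months fitted or with libraries thinned. The median of the 4 microglia genes was 0.33, and 0.05 and 0.04 with surrogate variables in DESeq2 and edgeR. Of 5 genes of oligodendrocyte precursor cells and 4 tested of meninges and pericytes 0 passed edgeR's or the DESeq2 Wald test, with Gpr17 and Col1a2 at an unadjusted p under 0.05. The 1 tested gene of excitatory neurons of the deep nuclei had −0.43 and did not pass. None of the measured mast cell and brainstem markers reached the limit for testing.

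In the 304Q/304Q mice, 4 of 22 tested genes of GABA and glycine handling passed as lower with age and 0 as higher, against 4.18% of all genes as lower. With no filter on low counts 2 passed. Gabbr2, a GABA-B receptor subunit, fell by 0.29 on the log2 scale (edgeR, adjusted p = 0.000228), Slc6a9 fell by 0.45 (adjusted p = 4.69e-05), Abat, the GABA transaminase, fell by 0.16 (adjusted p = 0.0272), and Gabbr1, the other GABA-B receptor subunit, fell by 0.15 (adjusted p = 0.0136). The change of the genotype difference with age passed for Pvalb (−0.46, adjusted p = 0.00216), Gls2 (−0.54, adjusted p = 0.0461) and Gabbr2 (−0.28, adjusted p = 0.0298). Of the GABA and glycine list those 2 calls, Gls2 and Gabbr2, became 0 with no filter on low counts, 1 with filterByExpr, 1 with GC and length trends removed, 4 in the DESeq2 Wald test and 5 with surrogate variables in either tool.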
